A study of Mus musculus with 40 samples.

Results

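Gastrocnemius, a fast calf muscle, was compared between ZT16 and ZT4 in C57BL/6 mice that could use a running wheel by day. Zeitgeber time (ZT) is the number of hours since the lights came on, so that ZT16 lies in the dark phase and ZT4 in the light phase. All 8 RNA sequencing libraries with the day wheel label were used, 4 titled DA ZT16 and 4 titled DA ZT4, out of 40 in the series. A second set of gastrocnemius libraries, from C57BL/6 mice with wheel access by night (4 titled CTRL ZT16 and 4 titled CTRL ZT4), was set beside them to test where the time effect differed. Every mouse of these 4 groups had a wheel for part of the day, so no group here shows gastrocnemius without wheel access. How long the wheels were open, over how many days, how far the mice ran and when they fed are not stated by the labels. The day wheel ZT4 muscles were taken in the phase in which the wheel was open and the ZT16 muscles in the phase in which it was not, so time of day and wheel access cannot be told apart within this comparison. Each library has a tag of its own, but no label says that separate animals were used, and p-values measure the spread between these libraries. In the column names the tags of the ZT4 and ZT16 libraries, under both schedules, form separate consecutive blocks of numbers. What these numbers stand for is not stated, and their order cannot be told apart from time of day.

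Most cells keep time with a transcriptional loop. CLOCK or its relative NPAS2 pairs with BMAL1, the product of Arntl, and activates the Period and Cryptochrome genes, whose proteins return to silence that pair. REV-ERB receptors, encoded by Nr1d1 and Nr1d2, are made by the same activators and repress Arntl, Clock and Npas2, and PAR bZIP factors such as DBP and TEF pass the rhythm on to other genes. In muscle the loop is set by light through the brain and also by feeding and activity, and it shapes fuel use over the day.

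At ZT16, day wheel gastrocnemius held more mRNA of G0s2, Mid1ip1 and Tbc1d1, and less of Nr4a3, Ppargc1a, Nr1d1 and Pfkfb3, than at ZT4. Of 14523 genes tested, 2159 passed an adjusted p of 0.05 in edgeR's quasi-likelihood test (14.9%), 1118 of them higher (7.70%) and 1041 lower (7.17%) at ZT16. Changes of at least 2-fold were seen in 78 of the higher and 109 of the lower genes. The 2 groups of 4 libraries did not overlap for 1919 of the called genes, and for 2941 of all genes tested (20.3%). Without DA ZT16 replicate 1, 907 genes were higher and 786 lower. The median log2 fold change of all genes tested was 0.00873.

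The day wheel libraries held 47836320 to 68742061 estimated counts. In a principal component analysis of the 16 gastrocnemius libraries, the first component held 28.1% of variance. It placed the day wheel ZT16 libraries at -16.5 to -6.21 and the day wheel ZT4 libraries at 3.44 to 9.40. On this component DA ZT16 replicate 1 lay apart at -16.5, with the next day wheel ZT16 library at -8.84. The second component (18.9%) placed the day wheel ZT16 libraries at 5.34 to 8.31 and the ZT4 libraries at -18.9 to -11.4. There DA ZT16 replicate 1 was at 5.34, with the next day wheel ZT16 library at 7.56. The summed level of 8 muscle fibre markers was 160600 to 178700 CPM (counts scaled to a common library total after TMM normalization) at ZT16 and 151700 to 179200 CPM at ZT4. Summed levels of adipocyte, erythroid, neutrophil, macrophage, endothelial, fibroblast, smooth muscle, Schwann cell, satellite cell and tendon markers also overlapped between the groups, and the neutrophil gene Ngp was at 0 in all 8 libraries. The 8 lymphocyte markers, of which 3 passed the filter on low counts, summed to 0.482 to 1.24 CPM at ZT16 and 1.27 to 1.495 CPM at ZT4, without overlap. Of 10 adipocyte markers, 1 was higher and 3 were lower at ZT16, against 14.9% of all genes called, and the part of other cell types in the results was not tested. In such bulk samples, fewer cells of a type and less RNA per cell cannot be told apart.

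The smallest p belonged to Atp6v1a, the catalytic subunit of the proton pump that acidifies lysosomes (GRCm38.p6, chr16:44085402-44139702). It had 13.2, 13.7, 13.3 and 14.0 CPM in the ZT16 libraries, against 27.8, 28.2, 30.0 and 30.9 CPM in the ZT4 libraries (log2 fold change -1.11 ± 0.06, adjusted p = 1.2e-09). Its ZT16 libraries lay close together, far below the ZT4 libraries. Ccdc9b had 45.8, 42.4, 46.4 and 43.2 CPM at ZT16, against 23.8, 25.0, 24.4 and 25.2 CPM at ZT4 (log2 fold change 0.85 ± 0.05, adjusted p = 1.2e-09). Fmo2, a flavin monooxygenase, had 29.8, 28.2, 31.3 and 26.2 CPM at ZT16, against 7.91, 8.42, 10.98 and 9.35 CPM at ZT4 (log2 fold change 1.66 ± 0.10, adjusted p = 1.9e-08), and its relative Fmo1 rose too (0.95 ± 0.08 on the log2 scale, adjusted p = 9e-07). Slc43a1, a transporter of large neutral amino acids, had 8.76, 9.13, 8.53 and 8.51 CPM at ZT16, against 22.6, 22.1, 18.7 and 23.2 CPM at ZT4 (log2 fold change -1.31 ± 0.09, adjusted p = 3e-08). The RNA polymerase elongation factor Ell (-0.77 ± 0.06) was lower and the ubiquitin ligase Trim7 (0.98 ± 0.08) higher at ZT16, both without overlap between the groups.

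The largest log2 fold change among the genes that rose was that of G0s2, an inhibitor of the triglyceride lipase ATGL. G0s2 had 91.8, 65.4, 37.8 and 54.7 CPM at ZT16, against 5.07, 8.58, 9.62 and 11.5 CPM at ZT4 (log2 fold change 2.85 ± 0.46, adjusted p = 0.0013), so that the lowest ZT16 library lay well above the highest ZT4 library although the ZT16 libraries differed widely among themselves. Other large rises were those of Lrtm2 (2.00 ± 0.19), Cntfr, a receptor subunit for ciliary neurotrophic factor (1.37 ± 0.16), Angptl7 (1.36 ± 0.22) and the forkhead factor Foxo6 (1.34 ± 0.12). Large falls included Tmem140, at 19.7, 19.4, 21.8 and 20.2 CPM at ZT16, against 74.2, 65.03, 56.6 and 90.9 CPM at ZT4 (log2 fold change -1.82 ± 0.20, adjusted p = 7.1e-05), the guanylate-binding protein Gbp10 (-1.83 ± 0.22), the deubiquitinase Otud1 (-1.67 ± 0.19) and the actin-binding protein Avil (-1.58 ± 0.19). The genes named from G0s2 to Avil were picked among genes without overlap between the groups, so their lack of overlap was set by the choice.

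**Figure D1:**
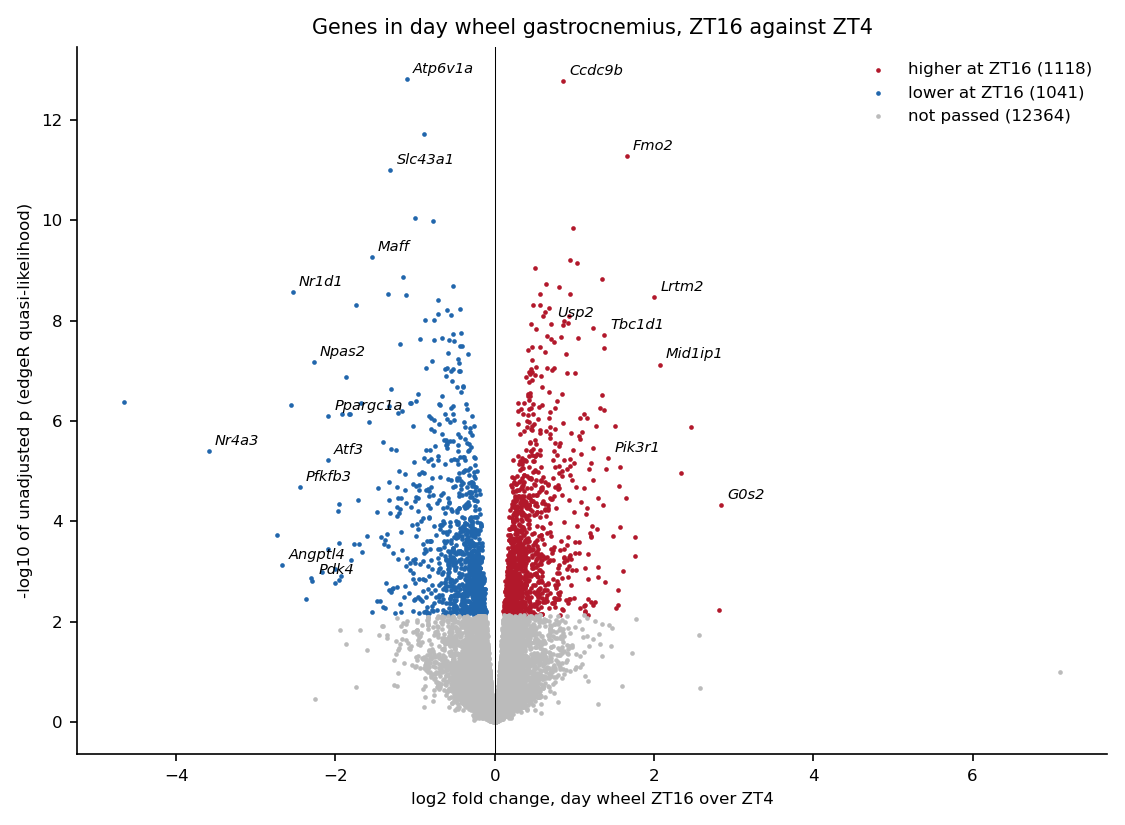
Each point is 1 of the genes tested, with the log2 fold change of day wheel ZT16 over ZT4 across and minus log10 of the unadjusted p upward. The 1118 genes higher at ZT16 are red, the 1041 lower genes blue and the rest grey, and the lower genes reach farther out, with Nr4a3 near -3.59.

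The positive arm of the clock was low at ZT16. Of the 4 core activators, 3 fell (75% called, against 14.9% of all genes), with a median log2 fold change of -0.69. Clock had 17.5, 18.3, 21.6 and 20.5 CPM at ZT16, against 29.9, 29.8, 30.4 and 29.1 CPM at ZT4 (log2 fold change -0.61 ± 0.07, adjusted p = 2e-05). Npas2 (GRCm38.p6, chr1:39193702-39363240) had 0.4597, 0.354, 0.367 and 0.299 CPM at ZT16, against 2.47, 2.11, 1.28 and 1.20 CPM at ZT4 (log2 fold change -2.27 ± 0.26, adjusted p = 1.4e-05). The groups did not overlap for either gene, and the fall of Npas2 was the larger. Arntl had 19.3, 16.1, 16.6 and 17.6 CPM at ZT16, against 31.9, 32.8, 25.7 and 28.0 CPM at ZT4 (log2 fold change -0.77 ± 0.22, adjusted p = 0.034), again without overlap. The call for Arntl was lost when DA ZT16 replicate 1, 2, 3 or 4 or DA ZT4 replicate 1, 2 or 4 was left out (log2 fold changes -0.82 to -0.71, adjusted p 0.055 to 0.084) and with lane 2 alone (-0.73). Arntl2, a weakly expressed relative of Arntl, had a log2 fold change of 0.13 ± 0.15 (adjusted p = 0.64).

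Nr1d1 showed the deepest fall among the clock genes. This gene (GRCm38.p6, chr11:98767932-98775377) had 31.0, 38.6, 41.1 and 32.4 CPM at ZT16, against 209, 235, 203 and 184 CPM at ZT4 (log2 fold change -2.54 ± 0.18, adjusted p = 2e-06). Its ZT16 libraries all lay at a small fraction of the ZT4 level. Its relative Nr1d2 (-0.13 ± 0.08) and the ROR genes Rora (0.01 ± 0.09) and Rorb (0.21 ± 0.28) did not pass the test.

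Of 9 core clock repressors, 5 were higher and 1 lower at ZT16 (66.7% called, against 14.9% of all genes), with a median log2 fold change of 0.38. Cry1 had 22.9, 23.1, 18.5 and 20.7 CPM at ZT16, against 15.7, 16.1, 14.5 and 14.4 CPM at ZT4 (log2 fold change 0.49 ± 0.08, adjusted p = 0.00033). Cry2, its relative, had 54.1, 58.4, 51.4 and 52.7 CPM at ZT16, against 39.2, 39.4, 38.8 and 49.4 CPM at ZT4 (log2 fold change 0.38 ± 0.07, adjusted p = 0.0012). Bhlhe41, which encodes the repressor DEC2, had 45.5, 43.1, 46.4 and 47.0 CPM at ZT16, against 29.6, 31.1, 28.4 and 28.2 CPM at ZT4 (log2 fold change 0.63 ± 0.10, adjusted p = 0.00067). In each of these 3 genes every ZT16 library was above every ZT4 library. Per2 (GRCm38.p6, chr1:91415977-91459351) had 27.6, 32.4, 26.3 and 28.1 CPM at ZT16, against 15.9, 10.1, 18.3 and 23.4 CPM at ZT4 (log2 fold change 0.76 ± 0.20, adjusted p = 0.019). Per3 had 29.8, 35.2, 33.2 and 29.3 CPM at ZT16, against 22.1, 19.6, 26.9 and 23.2 CPM at ZT4 (log2 fold change 0.48 ± 0.13, adjusted p = 0.019). Neither gene overlapped between the groups, although the ZT4 libraries of Per2 spread widely. Ciart, which encodes the repressor CHRONO, went the other way, with 1.25, 1.36, 1.53 and 1.263 CPM at ZT16, against 2.95, 2.58, 2.82 and 5.59 CPM at ZT4 (log2 fold change -1.36 ± 0.35, adjusted p = 0.018). Per1 had 23.6, 26.9, 25.5 and 22.3 CPM at ZT16, against 39.0, 17.5, 22.2 and 24.5 CPM at ZT4, and the groups overlapped (log2 fold change -0.07 ± 0.36, adjusted p = 0.93). Bhlhe40 (-0.32 ± 0.15) and Timeless (0.25 ± 0.13) did not pass the test. Without DA ZT16 replicate 2, or without DA ZT4 replicate 1, the count of higher repressors was 3. Per2 then had log2 fold changes of 0.695 and 0.734 and Per3 of 0.424 and 0.459, and Per3 missed the threshold without DA ZT4 replicate 2 (0.41), Per2 in a fit of the 8 day wheel libraries alone (0.76) and Ciart without DA ZT16 replicate 1 (-1.33).

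Clock outputs were mixed: 3 of 9 rose, 1 fell and 5 did not pass the test (44.4% called, against 14.9% of all genes). Usp2, a deubiquitinase under clock control, had 207, 192, 179 and 184 CPM at ZT16, against 108, 111, 124 and 126 CPM at ZT4 (log2 fold change 0.70 ± 0.07, adjusted p = 4.1e-06). Wee1, a kinase that holds back mitosis, had 3.11, 3.33, 3.09 and 3.69 CPM at ZT16, against 2.14, 1.83, 2.03 and 1.86 CPM at ZT4 (log2 fold change 0.75 ± 0.11, adjusted p = 0.00011). Both genes separated the groups without overlap. Coq10b, a coenzyme Q binding protein of mitochondria, had 5.47, 7.89, 6.76 and 6.95 CPM at ZT16, against 9.16, 10.4, 12.6 and 11.5 CPM at ZT4 (log2 fold change -0.69 ± 0.14, adjusted p = 0.003), also without overlap. Tef was slightly higher at ZT16 (0.18 ± 0.05, adjusted p = 0.014), and it missed the threshold without DA ZT16 replicate 2 (0.16) or DA ZT4 replicate 2 (0.14). Dbp had 39.8, 54.2, 40.4 and 39.9 CPM at ZT16 and 38.5, 38.8, 39.3 and 51.9 CPM at ZT4 (log2 fold change 0.05 ± 0.17, adjusted p = 0.9), and the groups overlapped. Hlf (0.25 ± 0.09), Nfil3 (-0.05 ± 0.12), Nampt (-0.05 ± 0.10) and Alas1 (0.22 ± 0.09) likewise did not pass the test, although Hlf passed without DA ZT16 replicate 1 (0.33) or CTRL ZT16 replicate 2 (0.24) and Alas1 without CTRL ZT4 replicate 4 (0.22).

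**Figure D2:**
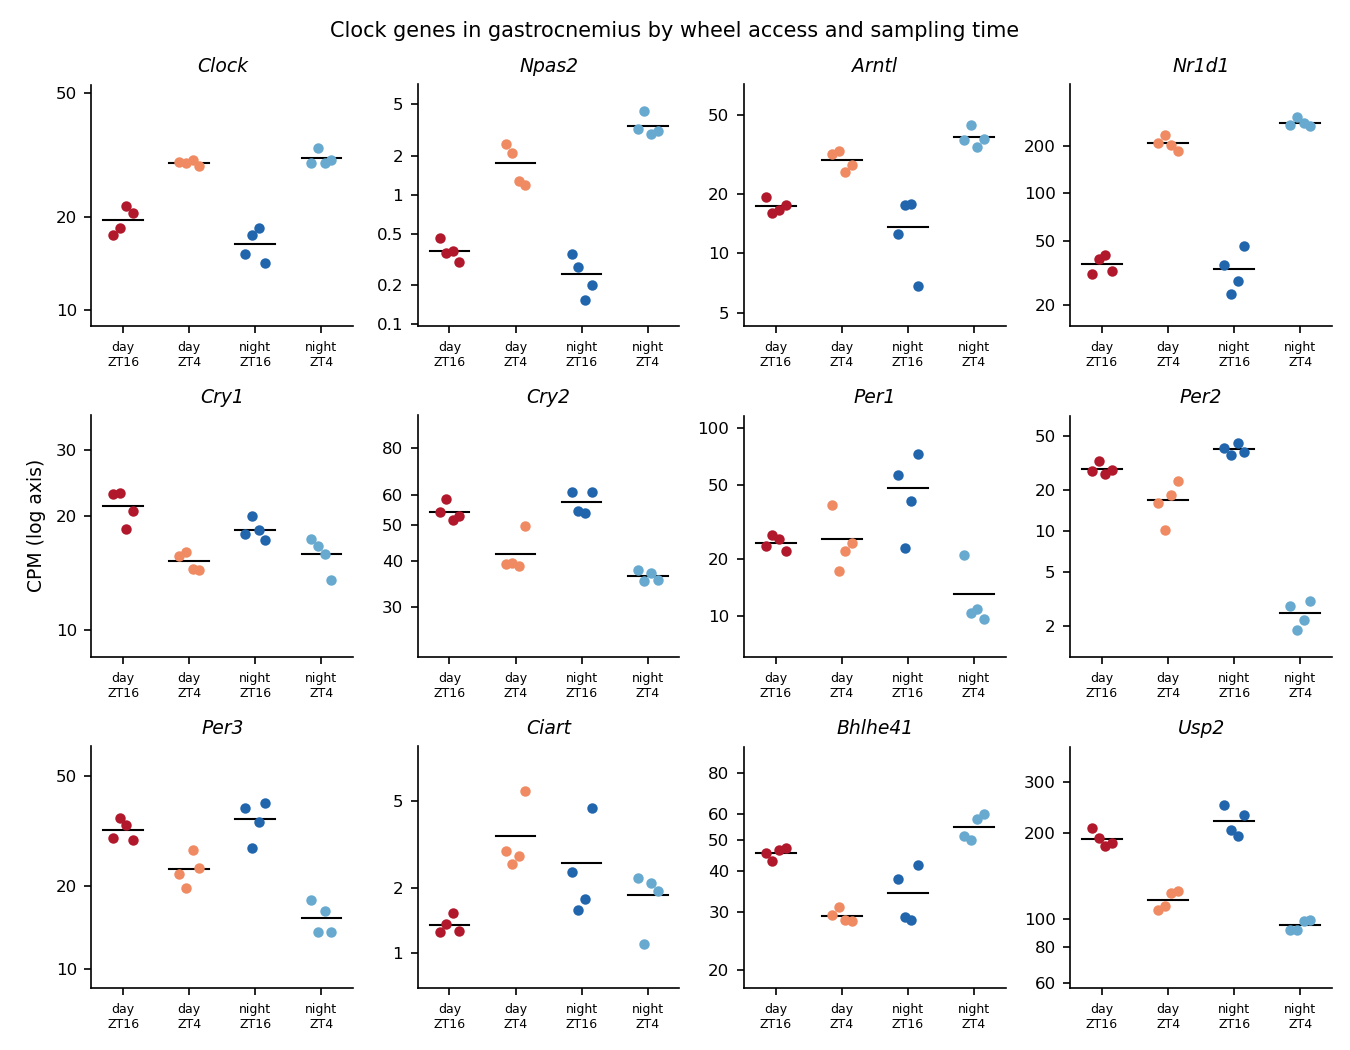
CPM on a log axis in each library of the 4 gastrocnemius groups, with day wheel access to the left of night wheel access and ZT16 to the left of ZT4, and a line at each group's mean. Clock, Npas2, Arntl and Nr1d1 are low at ZT16 under day wheel access, and Per2 at ZT4 lies near 16.9 CPM under day wheel access, against 2.48 CPM under night wheel access.

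Promoters of the called clock genes are shown because the genes of the loop are known targets of shared short DNA elements: the E-box CACGTG and its relative CACGTT, bound by CLOCK and BMAL1, the D-box (TTATGTAA or TTACGTAA), bound by PAR bZIP factors, the core of the REV-ERB and ROR element (TAGGTCA) and the cAMP response element (TGACGTCA). Of the 14 clock genes that passed the test, 12 matched an entry in the RefSeq promoter table (GRCm38.p6) and Per2 and Wee1 did not, and of the 12 the 3 with the largest rises and the 3 with the largest falls are printed. Each sequence runs 5′ to 3′ along the gene's strand, from 250 bases before to 50 bases after the start, and capitals mark a match to any of these elements on either strand. The windows are chr9:44084670-44084969 (plus strand) for Usp2, chr6:145865371-145865670 (minus) for Bhlhe41, chr10:85185005-85185304 (minus) for Cry1, chr11:98775328-98775627 (minus) for Nr1d1, chr1:39194022-39194321 (plus) for Npas2 and chr3:95882179-95882478 (minus) for Ciart.
Usp2: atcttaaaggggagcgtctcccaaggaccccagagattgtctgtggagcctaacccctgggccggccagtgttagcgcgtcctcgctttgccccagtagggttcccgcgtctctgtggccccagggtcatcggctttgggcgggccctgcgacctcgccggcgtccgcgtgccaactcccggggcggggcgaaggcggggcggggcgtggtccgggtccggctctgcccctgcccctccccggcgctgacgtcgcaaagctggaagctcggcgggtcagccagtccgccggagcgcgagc
Bhlhe41: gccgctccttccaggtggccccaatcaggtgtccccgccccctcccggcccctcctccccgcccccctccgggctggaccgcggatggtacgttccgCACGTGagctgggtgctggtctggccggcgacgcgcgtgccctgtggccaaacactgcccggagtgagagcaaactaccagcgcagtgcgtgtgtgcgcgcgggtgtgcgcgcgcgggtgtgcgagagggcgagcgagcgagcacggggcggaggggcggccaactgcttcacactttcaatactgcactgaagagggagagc
Cry1: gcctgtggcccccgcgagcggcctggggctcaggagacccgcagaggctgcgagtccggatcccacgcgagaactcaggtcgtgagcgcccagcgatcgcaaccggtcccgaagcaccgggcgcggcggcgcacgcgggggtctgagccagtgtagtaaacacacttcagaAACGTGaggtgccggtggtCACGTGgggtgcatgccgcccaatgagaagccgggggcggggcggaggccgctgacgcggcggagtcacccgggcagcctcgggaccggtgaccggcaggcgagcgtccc
Nr1d1: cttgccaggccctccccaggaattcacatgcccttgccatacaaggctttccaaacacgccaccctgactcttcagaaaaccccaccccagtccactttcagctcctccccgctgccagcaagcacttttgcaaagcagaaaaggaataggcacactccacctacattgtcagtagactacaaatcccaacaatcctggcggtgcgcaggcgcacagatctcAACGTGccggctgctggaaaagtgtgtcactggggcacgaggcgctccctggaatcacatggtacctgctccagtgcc
Npas2: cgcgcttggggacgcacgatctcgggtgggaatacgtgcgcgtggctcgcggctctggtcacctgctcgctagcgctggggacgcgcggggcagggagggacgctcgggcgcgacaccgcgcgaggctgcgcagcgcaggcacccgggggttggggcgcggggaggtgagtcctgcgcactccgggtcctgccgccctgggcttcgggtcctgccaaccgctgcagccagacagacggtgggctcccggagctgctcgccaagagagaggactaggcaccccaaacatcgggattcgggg
Ciart: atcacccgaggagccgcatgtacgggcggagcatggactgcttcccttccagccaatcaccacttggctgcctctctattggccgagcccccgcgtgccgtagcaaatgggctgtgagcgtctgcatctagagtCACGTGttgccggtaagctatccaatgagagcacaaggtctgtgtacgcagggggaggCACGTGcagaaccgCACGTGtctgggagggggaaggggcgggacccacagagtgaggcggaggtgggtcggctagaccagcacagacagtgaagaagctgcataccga
The Ciart window holds 3 E-boxes, those of Bhlhe41 and Cry1 hold 1 each, and CACGTT or its reverse complement occurs once in the windows of Cry1 and Nr1d1. No match was found in the windows of Usp2 and Npas2, and none of the 6 holds a D-box, the TAGGTCA core or the cAMP response element. The Npas2 window lies wholly within the gene coordinates given above, so bases before the gene's first position were not searched. Among all 32851 promoter entries, 7.15% hold an E-box, 4.68% CACGTT, 0.938% TTATGTAA, 0.119% TTACGTAA, 2.61% TAGGTCA and 1.79% TGACGTCA. E-boxes thus occur both in windows of genes that rose and in the window of a gene that fell, and a match in a window describes its letters only.

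Genes known to respond within minutes to hours of muscle contraction were mostly lower at ZT16 where they changed. Of 29 immediate early genes, 9 fell and 1 rose, with a median log2 fold change of -0.37, against 14.9% of all genes called. Nr4a3, an orphan nuclear receptor induced by contraction in muscle (GRCm38.p6, chr4:48045078-48086447), had 1.86, 1.12, 1.33 and 0.715 CPM at ZT16, against 16.7, 15.4, 10.6 and 17.0 CPM at ZT4 (log2 fold change -3.59 ± 0.47, adjusted p = 0.00024). Atf3, a stress-induced bZIP repressor, had 4.66, 3.36, 3.32 and 3.02 CPM at ZT16, against 15.8, 15.01, 21.4 and 8.89 CPM at ZT4 (log2 fold change -2.10 ± 0.29, adjusted p = 0.00032). Maff, a small MAF factor, had 1.42, 1.48, 1.43 and 1.33 CPM at ZT16, against 3.82, 3.73, 4.18 and 4.80 CPM at ZT4 (log2 fold change -1.54 ± 0.13, adjusted p = 8.7e-07). Among the genes named here Nr4a3 had the largest fall, and none of these 3 genes overlapped between the groups. The nuclear factor Csrnp1 (-0.95 ± 0.17) and the zinc finger factor Klf4 (-1.20 ± 0.21) fell as well. The count of higher members of this list was 2 without CTRL ZT16 replicate 4 and 0 in a fit of the 8 day wheel libraries alone.

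The PGC-1 and nuclear receptor list had 6 of 18 members lower and 1 higher at ZT16 (38.9% called, against 14.9% of all genes, median log2 fold change -0.14). Ppargc1a, which encodes the coactivator PGC-1alpha that drives mitochondrial gene expression (GRCm38.p6, chr5:51454249-52115853), had 33.1, 33.0, 34.1 and 34.8 CPM at ZT16, against 110.3, 142, 123 and 199 CPM at ZT4 (log2 fold change -2.09 ± 0.23, adjusted p = 7.5e-05). The ZT16 libraries lay close together, while the ZT4 libraries spread widely above them. Of 28 nuclear genes of oxidative phosphorylation, 0 passed edgeR's test, DESeq2 or limma-voom and 0 had an unadjusted p under 0.05 (median log2 fold change -0.02). Of 13 mitochondrially encoded genes, 0 passed any of these tests and 2 had an unadjusted p under 0.05 (median -0.05). The single higher member of the PGC-1 list was not called without DA ZT16 replicate 1, without DA ZT4 replicate 1 or with lane 1 alone.

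Of 26 genes of glucose entry and glycolysis, 5 rose and 3 fell, with a median log2 fold change of 0.05 (30.8% called, against 14.9% of all genes, 7.70% higher and 7.17% lower). The 4 Pfkfb genes, whose enzymes make or remove a small sugar phosphate that speeds glycolysis, split evenly. Pfkfb3 (GRCm38.p6, chr2:11471430-11554071) had 97.5, 125, 233 and 67.4 CPM at ZT16, against 714, 686, 609 and 846 CPM at ZT4 (log2 fold change -2.45 ± 0.37, adjusted p = 0.00078). Pfkfb2 had 18.7, 17.2, 18.4 and 16.5 CPM at ZT16, against 24.2, 28.6, 36.6 and 33.0 CPM at ZT4 (log2 fold change -0.79 ± 0.12, adjusted p = 0.00058). Pfkfb4 had 131, 126, 95.1 and 120.5 CPM at ZT16, against 61.4, 55.3, 56.1 and 58.2 CPM at ZT4 (log2 fold change 1.04 ± 0.08, adjusted p = 9.5e-07). Pfkfb3 and Pfkfb2 were thus low at ZT16 and Pfkfb4 high. Pfkfb1 had 69.6, 60.3, 58.2 and 59.7 CPM at ZT16, against 34.5, 35.9, 44.4 and 38.5 CPM at ZT4 (log2 fold change 0.69 ± 0.09, adjusted p = 0.0001). None of the 4 genes overlapped between the groups.

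Tbc1d1, which holds glucose transporters inside the fibre until it is phosphorylated, had 146, 111, 112 and 130.2 CPM at ZT16, against 50.6, 44.1, 44.5 and 54.6 CPM at ZT4 (log2 fold change 1.37 ± 0.12, adjusted p = 6.1e-06). Every ZT16 library was above every ZT4 library. Pdk4, a kinase that inhibits pyruvate dehydrogenase, had 179, 98.4, 162 and 77.0 CPM at ZT16, against 494, 588, 511 and 943 CPM at ZT4 (log2 fold change -2.29 ± 0.57, adjusted p = 0.016). The groups did not overlap, but both spread widely, and Pdk4 missed the threshold without DA ZT16 replicate 2 (-2.18).

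The lists of lipid genes were called about as often as all genes (14.9%). Of 29 genes of lipid and sterol synthesis, 4 rose (13.8%, median log2 fold change 0.06), and 2 rose without DA ZT4 replicate 4. Of 29 genes of fatty acid use, 3 fell and 1 rose (13.8%, median -0.02). The single rise was not called without DA ZT16 replicate 1, 2 or 3 or DA ZT4 replicate 1, 2 or 4, and without DA ZT16 replicate 4 there were 2. Mid1ip1, a gene outside the lists which helps to activate acetyl-CoA carboxylase, had 84.4, 68.0, 67.1 and 66.1 CPM at ZT16, against 14.4, 16.7, 18.2 and 18.6 CPM at ZT4 (log2 fold change 2.07 ± 0.19, adjusted p = 1.5e-05). Its relative Thrsp had 28.0, 23.7, 23.6 and 35.6 CPM at ZT16, against 17.8, 13.8, 19.5 and 12.4 CPM at ZT4 (log2 fold change 0.81 ± 0.19, adjusted p = 0.013). Both genes, like Gpam, which starts triglyceride synthesis (0.38 ± 0.10, adjusted p = 0.015), separated the groups without overlap. For Mid1ip1 the lack of overlap was a condition of being picked. Angptl4, an inhibitor of lipoprotein lipase, had 0.635, 0.512, 0.521 and 0.781 CPM at ZT16, against 6.58, 3.13, 1.97 and 4.01 CPM at ZT4 (log2 fold change -2.67 ± 0.60, adjusted p = 0.0099), and did not pass in limma-voom (-2.55, adjusted p = 0.081). Pck1, an enzyme of glyceride synthesis that was listed here as an adipocyte marker, had 0.701, 0.886, 1.87 and 1.38 CPM at ZT16, against 8.34, 4.70, 2.204 and 3.58 CPM at ZT4 (log2 fold change -1.95 ± 0.40, adjusted p = 0.0049). The summed level of the 10 adipocyte markers overlapped, at 1340 to 1556 CPM at ZT16 and 1400 to 1596 CPM at ZT4. Of these markers 1 was higher and 3 were lower, Pck1 among them, against 14.9% of all genes called. The part of adipocytes in the fall of Pck1 was not tested. The hormone-sensitive lipase gene Lipe was modestly lower at ZT16 (-0.31 ± 0.07, adjusted p = 0.0074). The number of lower genes in the synthesis list, 0 in edgeR's test, was 1 when CTRL ZT16 replicate 2, CTRL ZT4 replicate 4, DA ZT16 replicate 1, DA ZT4 replicate 3 or DA ZT4 replicate 4 was left out, and 2 by DESeq2.

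**Figure D3:**
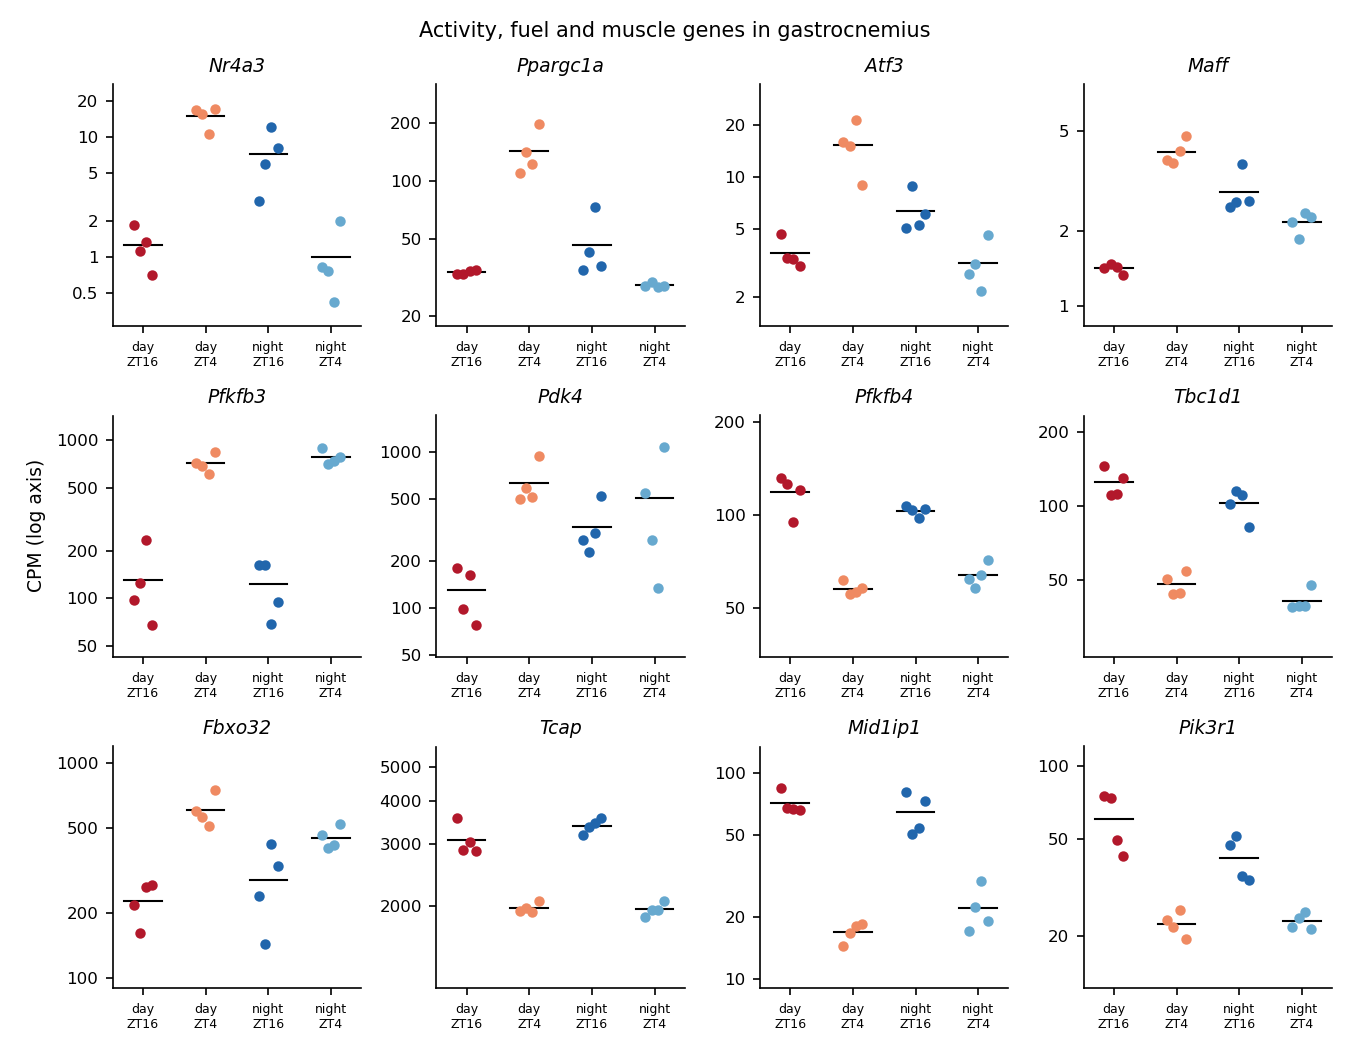
CPM on a log axis in each library of the 4 gastrocnemius groups, ordered with day wheel access to the left of night wheel access and ZT16 to the left of ZT4, and a line at each group's mean. Nr4a3, Ppargc1a, Atf3 and Maff are low at ZT16 and high at ZT4 under day wheel access, while Pfkfb3, Pfkfb4, Tbc1d1 and Tcap differ in the same direction under both schedules.

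Of 30 insulin, growth factor and mTOR signalling genes, 9 fell and 3 rose at ZT16 (40% called, against 14.9% of all genes, median log2 fold change -0.06). Pik3ca, the catalytic subunit of the kinase that relays insulin, had 37.8, 43.8, 40.7 and 41.3 CPM at ZT16, against 57.5, 59.98, 60.1 and 57.3 CPM at ZT4 (log2 fold change -0.52 ± 0.05, adjusted p = 1.9e-06). Pik3r1, its regulatory subunit, had 75.5, 74.1, 49.9 and 42.6 CPM at ZT16, against 23.2, 21.7, 25.5 and 19.4 CPM at ZT4 (log2 fold change 1.43 ± 0.19, adjusted p = 0.00031). The 2 subunits of this kinase thus moved in opposite directions, each without overlap between the groups. Sesn1, a brake on the growth kinase mTORC1, had 17.996, 20.9, 15.97 and 12.9 CPM at ZT16, against 37.3, 30.4, 36.6 and 30.2 CPM at ZT4 (log2 fold change -0.99 ± 0.12, adjusted p = 5.1e-05).

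Protein breakdown genes had 6 of 26 members lower and 4 higher at ZT16 (38.5% called, against 14.9% of all genes, median log2 fold change -0.06). Fbxo32, the muscle ubiquitin ligase subunit atrogin, had 218, 161, 265 and 270.1 CPM at ZT16, against 598, 558, 506 and 745 CPM at ZT4 (log2 fold change -1.40 ± 0.28, adjusted p = 0.005). Fbxo30, another F-box protein induced in wasting, had 7.88, 8.34, 8.03 and 8.61 CPM at ZT16, against 12.4, 14.7, 16.8 and 16.7 CPM at ZT4 (log2 fold change -0.88 ± 0.09, adjusted p = 3.8e-06). Gabarapl1, a coat protein of autophagosomes, had 39.8, 35.7, 38.5 and 35.7 CPM at ZT16, against 53.0, 63.6, 78.9 and 70.3 CPM at ZT4 (log2 fold change -0.83 ± 0.10, adjusted p = 7.5e-05). All 3 were lower in every ZT16 library, as was the autophagy initiator Atg14 (-0.44 ± 0.10), whereas Fbxo21 was higher (0.45 ± 0.08). Without DA ZT16 replicate 1, DA ZT4 replicate 2 or DA ZT4 replicate 3, and in a fit of the 8 day wheel libraries alone, 2 members of the list were higher.

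Glucocorticoid responsive genes moved in both directions. Of 23 members, 3 rose and 5 fell (34.8% called, against 14.9% of all genes, median log2 fold change -0.02). Glul, glutamine synthetase, had 716, 529, 401 and 398 CPM at ZT16, against 262, 214, 294 and 345 CPM at ZT4 (log2 fold change 0.88 ± 0.18, adjusted p = 0.006), and missed the threshold in a fit of the 8 day wheel libraries alone (0.87, adjusted p = 0.059). Klf15, a factor that drives amino acid breakdown, had 42.8, 35.3, 33.5 and 30.8 CPM at ZT16, against 65.9, 55.7, 60.03 and 62.2 CPM at ZT4 (log2 fold change -0.78 ± 0.13, adjusted p = 0.001). Cdkn1a, a cell cycle inhibitor, fell as well (-0.87 ± 0.19, adjusted p = 0.0059). The proline-degrading enzyme Prodh, of the amino acid breakdown list, had 24.4, 17.0, 18.3 and 17.8 CPM at ZT16, against 7.89, 7.64, 10.5 and 11.02 CPM at ZT4 (log2 fold change 1.07 ± 0.14, adjusted p = 0.00016).

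Chaperones of the endoplasmic reticulum and cytosol were mostly lower at ZT16 where they changed. In the endoplasmic reticulum and integrated stress list, 15 of 29 members fell and 2 rose (58.6% called, against 14.9% of all genes), with a median log2 fold change of -0.21. Hsp90b1, the HSP90 of the endoplasmic reticulum, had 73.3, 82.7, 81.3 and 82.1 CPM at ZT16, against 110.3, 106, 106 and 111 CPM at ZT4 (log2 fold change -0.44 ± 0.05, adjusted p = 7.8e-06). Ern1, a sensor of unfolded proteins, had 6.35, 7.24, 6.28 and 5.82 CPM at ZT16, against 10.5, 8.60, 11.7 and 12.6 CPM at ZT4 (log2 fold change -0.76 ± 0.11, adjusted p = 8.6e-05). The disulfide isomerases Pdia6 (-0.35 ± 0.05) and Pdia3 (-0.32 ± 0.05) fell too. Ddit3, the stress factor CHOP, was an exception, with 20.9, 15.98, 18.8 and 16.3 CPM at ZT16, against 6.71, 10.3, 9.73 and 9.24 CPM at ZT4 (log2 fold change 0.99 ± 0.15, adjusted p = 0.00036). The 15 falls were 10 without DA ZT16 replicate 1.

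Of 29 heat shock and chaperone genes, 12 fell and 1 rose at ZT16 (44.8% called, against 14.9% of all genes, median log2 fold change -0.17). Serpinh1, a chaperone of collagen, had 35.2, 39.4, 42.2 and 41.7 CPM at ZT16, against 81.7, 69.5, 58.5 and 68.1 CPM at ZT4 (log2 fold change -0.81 ± 0.17, adjusted p = 0.0059). Hspb1, a small heat shock protein, had 100.1, 84.5, 87.1 and 84.6 CPM at ZT16, against 130.1, 137, 115 and 114 CPM at ZT4 (log2 fold change -0.48 ± 0.11, adjusted p = 0.0068). Cirbp, an RNA-binding protein known to be induced by mild cold, had 40.2, 34.3, 40.2 and 36.9 CPM at ZT16, against 28.9, 30.0, 29.1 and 29.1 CPM at ZT4 (log2 fold change 0.37 ± 0.07, adjusted p = 0.00086). Cirbp was thus higher, where Serpinh1 and Hspb1 were lower, and the labels give no body temperature. Without DA ZT16 replicate 1, 8 members of the heat shock list fell, and the count of higher members was 0 without that library, without DA ZT4 replicate 1 and with lane 1 alone.

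Of 21 genes of myogenic and mechanical regulation, 3 rose and 2 fell at ZT16 (23.8% called, against 14.9% of all genes). Tcap, the cap of titin at the Z-disc (GRCm38.p6, chr11:98383811-98384953), had 3566, 2899, 3041 and 2862 CPM at ZT16, against 1937, 1971, 1928 and 2069 CPM at ZT4 (log2 fold change 0.65 ± 0.06, adjusted p = 1.8e-06). Outside the list, Mylk4, a muscle kinase of the myosin light chain kinase family, had 2243, 2429, 2266 and 2727 CPM at ZT16, against 1041, 849.9, 1007 and 1354 CPM at ZT4 (log2 fold change 1.18 ± 0.17, adjusted p = 0.00043). Ankrd23, a titin-linked protein also outside it, had 2459, 1976, 2461 and 2113 CPM at ZT16, against 3538, 2916, 3304 and 2924 CPM at ZT4 (log2 fold change -0.49 ± 0.08, adjusted p = 0.00075). None of these 3 genes overlapped between the groups, and Tcap and Mylk4 were higher where Ankrd23 was lower. Myod1, the myogenic factor, had 48.9, 31.1, 26.8 and 31.9 CPM at ZT16, against 12.9, 15.3, 17.8 and 14.1 CPM at ZT4 (log2 fold change 1.21 ± 0.23, adjusted p = 0.0039). Xirp1, an actin-binding protein of strained and repairing fibres, had 164, 131, 139 and 136 CPM at ZT16, against 290.0, 251, 329.6 and 232 CPM at ZT4 (log2 fold change -0.95 ± 0.14, adjusted p = 0.00053). The list had 1 fall without DA ZT16 replicate 1, DA ZT4 replicate 2 or DA ZT4 replicate 3. Of 13 fast fibre genes, 0 passed edgeR's test, DESeq2 or limma-voom and 0 had an unadjusted p under 0.05. Of 10 slow fibre genes, 0 passed these tests and 1 had an unadjusted p under 0.05, and 1 was lower without DA ZT4 replicate 4.

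Of 29 genes of excitation-contraction coupling and calcium signalling, 2 rose and 4 fell (20.7% called, against 14.9% of all genes). Orai1, the store-operated calcium channel, had 32.3, 27.7, 28.6 and 31.2 CPM at ZT16, against 22.7, 22.4, 21.0 and 22.0 CPM at ZT4 (log2 fold change 0.44 ± 0.05, adjusted p = 1.8e-05). Rcan1, an inhibitor of calcineurin, had 59.4, 70.8, 68.1 and 57.9 CPM at ZT16, against 141, 118, 175 and 142 CPM at ZT4 (log2 fold change -1.17 ± 0.24, adjusted p = 0.006). Nfatc1, a factor that calcineurin activates, was lower at ZT16 (-0.29 ± 0.06, adjusted p = 0.0037). Without DA ZT4 replicate 1 the list had 4 rises and 2 falls, and it had 1 rise without DA ZT16 replicate 3, DA ZT4 replicate 3 or DA ZT4 replicate 4.

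Members of the myokine list and of the matrix list were lower at ZT16 where they passed the test. Of 14 myokines, 4 fell (28.6%, against 14.9% of all genes called) and the others did not pass the test. Metrnl, a secreted factor known to rise in muscle after exercise, had 3.44, 4.15, 3.69 and 3.32 CPM at ZT16, against 5.39, 5.88, 7.03 and 6.205 CPM at ZT4 (log2 fold change -0.75 ± 0.11, adjusted p = 0.00021). Vegfa, which drives capillary growth, had 219, 188, 215 and 199 CPM at ZT16, against 260.2, 274, 317 and 327 CPM at ZT4 (log2 fold change -0.52 ± 0.11, adjusted p = 0.0062). Of 24 collagen and matrix genes, 6 fell (25% of the list, against 14.9% of all genes called, median log2 fold change -0.29), and 1 rose when DA ZT16 replicate 1 was left out. Fbn1, the microfibril protein fibrillin, had 16.9, 24.5, 25.5 and 25.0 CPM at ZT16, against 69.7, 57.02, 44.0 and 59.5 CPM at ZT4 (log2 fold change -1.32 ± 0.15, adjusted p = 5.7e-05). The basement membrane collagens Col4a1 (-0.56 ± 0.13) and Col4a2 (-0.55 ± 0.12) fell together. Fibroblast markers summed to 541 to 734 CPM at ZT16 and 604 to 816 CPM at ZT4, and their part in these falls was not tested.

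Of 24 genes of ribosome biogenesis, 7 rose and the others did not pass the test (29.2%, against 14.9% of all genes called, median log2 fold change 0.14). Nop56, a nucleolar protein that guides ribosomal RNA modification, had 35.6, 31.9, 30.3 and 32.0 CPM at ZT16, against 22.8, 23.5, 24.4 and 24.1 CPM at ZT4 (log2 fold change 0.45 ± 0.05, adjusted p = 1.7e-05). Ubtf, a factor of ribosomal RNA transcription (0.24 ± 0.04), and nucleolin, Ncl (0.18 ± 0.04), rose by less. Of 20 antioxidant genes, 6 rose and 2 fell (40%, against 14.9% of all genes called), with 1 fall without DA ZT4 replicate 1 or replicate 4. Nqo1, a quinone reductase, had 31.9, 31.5, 31.1 and 34.9 CPM at ZT16, against 26.2, 26.0, 23.3 and 26.7 CPM at ZT4 (log2 fold change 0.34 ± 0.06, adjusted p = 0.00058). Nfe2l2, which encodes the factor NRF2 that activates Nqo1, was lower at ZT16 (-0.25 ± 0.06, adjusted p = 0.0093). Of 21 genes of hypoxia and angiogenesis, 2 rose and 6 fell (38.1% called, against 14.9% of all genes), with 1 to 3 rises when 1 library was left out. Hif3a, a relative of the hypoxia factors and among the 2 rises, had 2.04, 2.16, 1.64 and 2.39 CPM at ZT16, against 0.719, 0.841, 0.843 and 0.900 CPM at ZT4 (log2 fold change 1.32 ± 0.18, adjusted p = 6e-05).

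**Figure D4:**
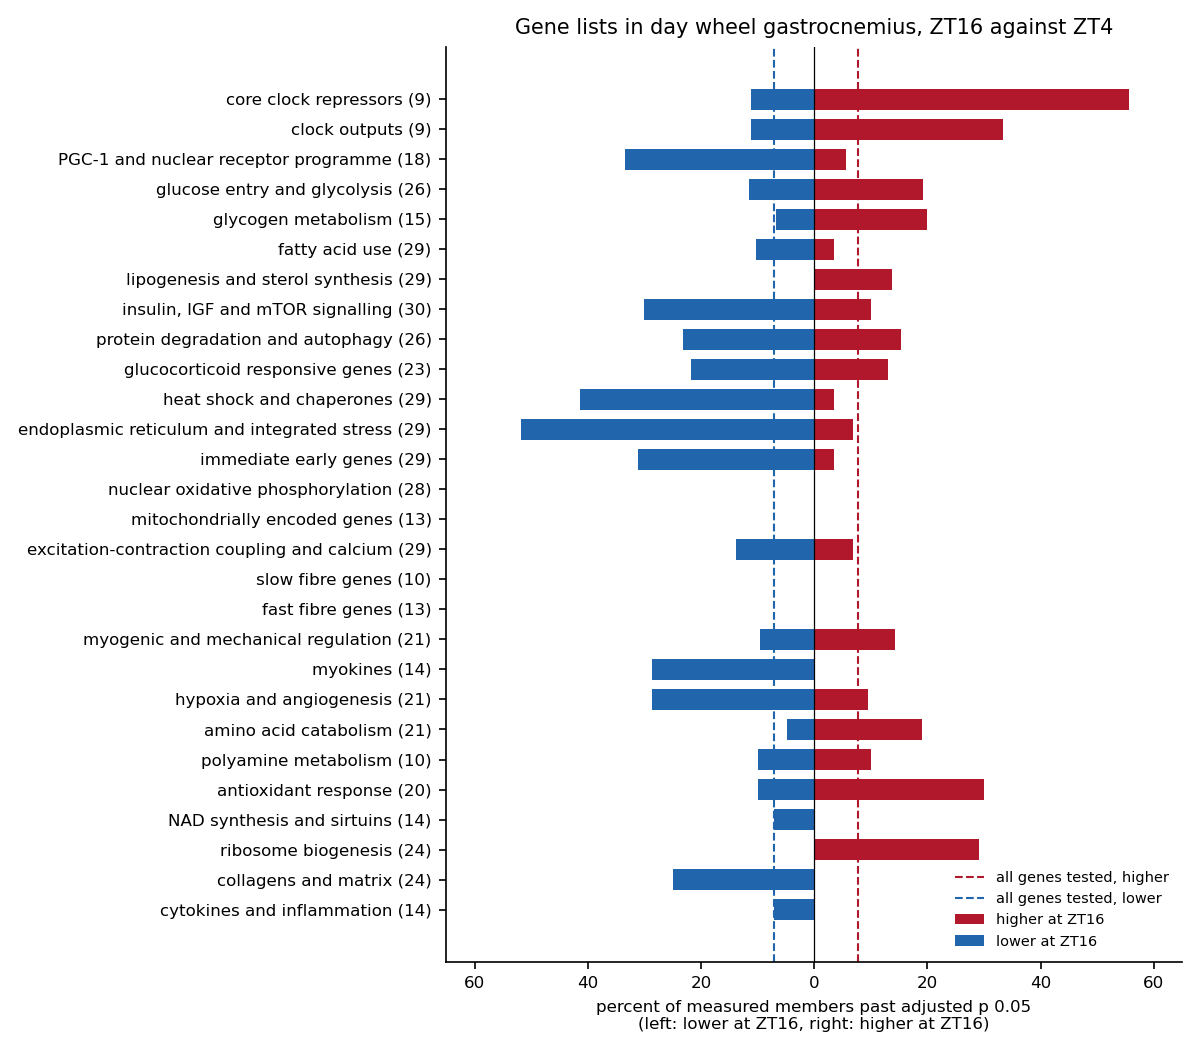
Percent of the measured members of each gene list shown (number in brackets) that were higher (bars to the right) or lower (bars to the left) at ZT16. Calls are at an adjusted p under 0.05 in day wheel gastrocnemius. Cell type marker lists and lists with fewer than 9 measured members are left out, such as the core clock activators (3 of 4 lower). Dashed lines mark the shares of all genes tested, 7.70% higher and 7.17% lower. Among the lists shown, the stress and chaperone lists reach farthest to the left.

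To ask which of these changes depended on the wheel schedule, the time effect under day wheel access was tested against that under night wheel access, where 2729 genes passed between ZT16 and ZT4 (18.8%). The difference, day wheel minus night wheel, passed for 1415 genes (9.74%), 679 above 0 and 736 below 0. Of the genes called under day wheel access, 678 (31.4%) also had a called difference. In all, 733 genes were called in the same direction under both schedules, which is 34% of the day wheel calls and 26.9% of the night wheel calls, and 159 were called in opposite directions. Of those 159, 56 were higher at ZT16 under day wheel access and lower under night wheel access, and 103 were the reverse. The 2 schedules share no library.

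Some loop genes were lower at ZT16 under both schedules. Nr1d1 had log2 fold changes of -2.54 ± 0.18 under day wheel access and -3.06 ± 0.18 under night wheel access (difference 0.52 ± 0.24, adjusted p = 0.21). Clock had -0.61 ± 0.07 under day wheel access and -0.92 ± 0.08 under night wheel access (difference 0.31 ± 0.11, adjusted p = 0.074). The falls of Nr1d1 and Clock passed in both schedules and their differences did not. Per2 had a smaller time effect under day wheel access (difference -3.23 ± 0.30, adjusted p = 4.4e-05). In night wheel muscle Per2 stood at 40.4, 36.1, 44.1 and 38.3 CPM at ZT16, against 2.80, 1.88, 2.19 and 3.04 CPM at ZT4. The ZT4 libraries of day wheel muscle were thus all above those of night wheel muscle, and its ZT16 libraries all below. Per3 (difference -0.72 ± 0.18, adjusted p = 0.021), Usp2 (-0.49 ± 0.10, adjusted p = 0.0041) and Wee1 (-0.66 ± 0.16, adjusted p = 0.01) also had smaller rises under day wheel access, Wee1 without a called difference in lane 1 alone (-0.59). Coq10b was called in opposite directions, -0.685 under day wheel access and 0.675 under night wheel access (difference -1.36 ± 0.20, adjusted p = 0.0005). Nr1d2 had -0.13 ± 0.08 under day wheel access and rose by 0.43 ± 0.08 under night wheel access (difference -0.57 ± 0.11, adjusted p = 0.0041), and Hlf (-0.54 ± 0.13, adjusted p = 0.011) and Nfil3 (-0.78 ± 0.17, adjusted p = 0.0097) passed as rises under night wheel access and did not pass under day wheel access. Bhlhe41 had opposite time effects, 0.63 ± 0.10 under day wheel access and -0.67 ± 0.10 under night wheel access (difference 1.30 ± 0.14, adjusted p = 6.8e-05). Of 9 clock outputs, 6 had a called difference below 0, against 9.74% of all genes in either direction.

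The time effect differed by schedule for some contraction and stress genes. Of 29 immediate early genes, 13 had a called difference, below 0, against 9.74% of all genes in either direction. Of 29 heat shock genes, 18 had one below 0, and 1 was above 0 when CTRL ZT4 replicate 1, DA ZT16 replicate 1 or DA ZT16 replicate 3 was left out. Nr4a3 had 2.93, 5.92, 12.03 and 8.12 CPM in night wheel ZT16 libraries, against 0.824, 0.772, 0.426 and 2.00 CPM in night wheel ZT4 libraries, and its difference was -6.35 ± 0.67, adjusted p = 0.00012. Ppargc1a had 34.5, 42.8, 73.6 and 36.5 CPM in night wheel ZT16 libraries, against 28.6, 29.9, 28.3 and 28.5 CPM in night wheel ZT4 libraries (difference -2.79 ± 0.32, adjusted p = 0.00026). Nr4a3 was thus higher at the sampling time that lay in the phase of wheel access, ZT4 by day and ZT16 by night, while the night wheel effect of Ppargc1a, 0.70 ± 0.23, did not pass (adjusted p = 0.051). Atf3 (difference -3.07 ± 0.41, adjusted p = 0.00064), Maff (-1.93 ± 0.19, adjusted p = 4.5e-06), Klf4 (-1.85 ± 0.30, adjusted p = 0.0017) and Otud1 (-3.58 ± 0.27, adjusted p = 4.6e-06) were, like Nr4a3, called lower at ZT16 under day wheel access and higher under night wheel access. Csrnp1 (-1.39 ± 0.24, adjusted p = 0.0011) and Xirp1 (-1.30 ± 0.20, adjusted p = 0.0012) fell under day wheel access without a called night wheel effect. Among 23 glucocorticoid responsive genes, 7 differences were called, below 0. Under night wheel access 14 of these 23 were higher and 2 lower at ZT16, against 18.8% of all genes called. Under day wheel access 3 were higher and 5 lower. Of the 29 immediate early genes, 13 were higher and 0 lower under night wheel access. Of the 29 heat shock genes, 10 were higher and 1 lower. A difference below 0 can thus come from a fall under day wheel access, a rise under night wheel access or both.

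Of 29 lipid and sterol synthesis genes, 10 had a called difference above 0, against 9.74% of all genes in either direction, and 1 was below 0 when DA ZT4 replicate 1 was left out. Under day wheel access 4 of these 29 genes were higher at ZT16, whereas under night wheel access 3 were higher and 12 lower. Of all genes tested, 14.9% were called under day wheel access and 18.8% under night wheel access. By contrast the difference was not called for Tcap, with time effects of 0.65 ± 0.06 under day wheel access and 0.79 ± 0.06 under night wheel access. The same held for Tbc1d1 (1.37 ± 0.12 under day and 1.31 ± 0.12 under night wheel access), G0s2 (2.85 ± 0.46 and 2.57 ± 0.46), Pfkfb3 (-2.45 ± 0.37 and -2.68 ± 0.37) and Nop56 (0.45 ± 0.05 and 0.42 ± 0.05), each called under both schedules.

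The smallest p of the difference belonged to Slc9a3r2, a scaffold of membrane transporters. It had 32.2, 31.0, 31.3 and 30.9 CPM at ZT16, against 46.8, 47.5, 46.7 and 48.1 CPM at ZT4, under day wheel access, and 40.4, 49.7, 51.6 and 44.0 CPM at ZT16, against 27.1, 23.4, 22.5 and 26.6 CPM at ZT4, under night wheel access (difference -1.49 ± 0.10, adjusted p = 5.5e-08). The gene therefore fell under the first schedule and rose under the second. Zfp512b, a zinc finger protein (0.81 ± 0.06, adjusted p = 5.7e-07), the cell junction protein Afdn (1.05 ± 0.10, adjusted p = 4.5e-06) and Wdr6 (1.63 ± 0.15, adjusted p = 4.4e-06) showed the opposite crossing. The anion channel subunit Lrrc8a (-1.04 ± 0.09, adjusted p = 1.6e-06), the growth factor receptor Fgfr3 (-1.96 ± 0.18, adjusted p = 2.8e-06) and Nfe2l2 (-0.96 ± 0.09, adjusted p = 2.5e-06) crossed like Slc9a3r2. Mcf2l had a time effect of -0.13 ± 0.08 under day wheel access, which did not pass, and rose by 1.33 ± 0.08 under night wheel access (difference -1.46 ± 0.11, adjusted p = 5.7e-07). Pdxk, pyridoxal kinase, likewise had -0.13 ± 0.08 under day wheel access and rose by 1.01 ± 0.08 under night wheel access (difference -1.14 ± 0.11, adjusted p = 4.5e-06). Atp6v1a fell under day wheel access, at -1.11 ± 0.06, with -0.07 ± 0.06 under night wheel access (difference -1.04 ± 0.08, adjusted p = 6.5e-07).

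**Figure D5:**
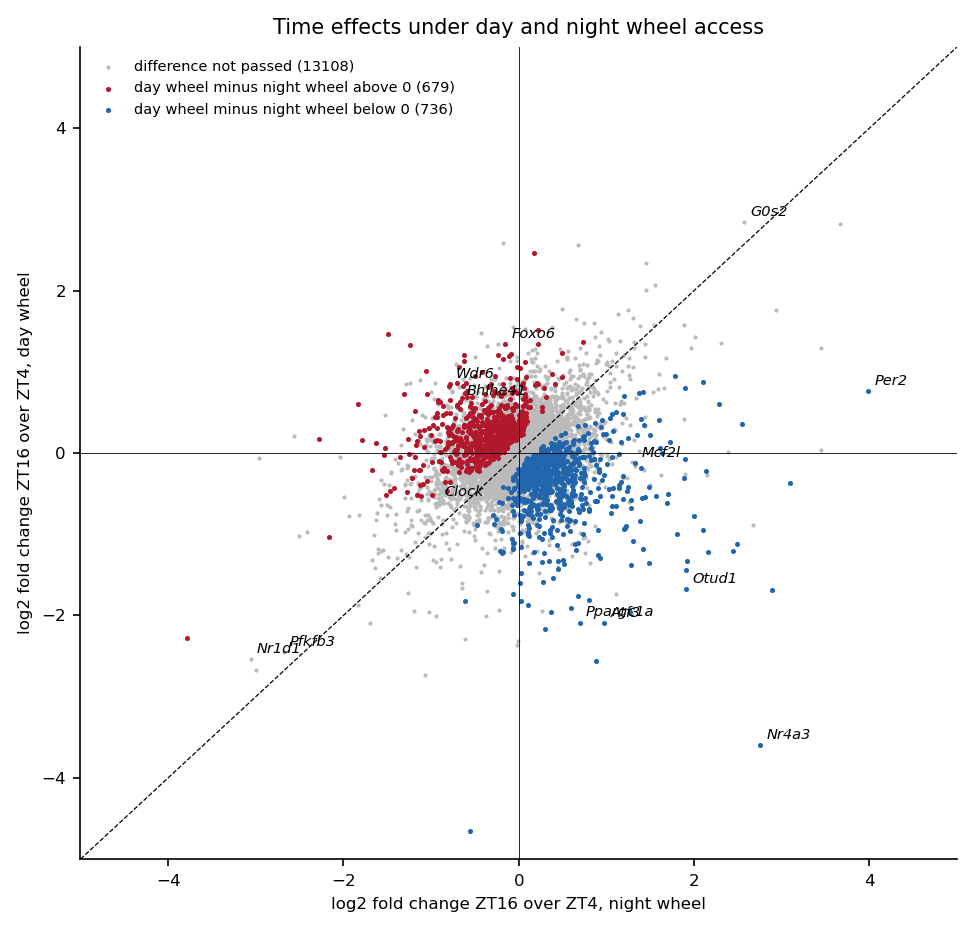
Log2 fold change of ZT16 over ZT4 under day wheel access (vertical) and night wheel access (horizontal) for the genes tested, except 2 beyond the axis limit of 5. Genes whose difference passed are red where day wheel minus night wheel is above 0 (679) and blue where it is below 0 (736), and genes on the dashed line have equal effects, with Nr4a3 and Per2 far below it.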

How the data were processed

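Poly(A) RNA of gastrocnemius was sequenced from stranded mRNA libraries, per the labels' protocols. The deposited table holds estimated counts per gene, made by the authors, with 2 lane columns for each library. The submitters' processing notes name bcl2fastq 2.20.0.422, kallisto 0.46.2, DESeq2 1.26.0 and the builds GRCm38.p6 and mm10, and the transcript annotation and the summing to genes are not given in the sources used here. Estimated counts of genes with near-identical copies are uncertain.

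The 2 lanes of each library were summed and rounded to whole numbers, and CPM are these counts scaled to a common total by the TMM effective library size. Of 23621 table entries, 7 had no gene symbol (0.00139% of counts). They were kept in the counts under their gene number, and none of them is named here. All 16 gastrocnemius libraries entered 1 edgeR 4.0.16 quasi-likelihood fit in R 4.3.3, with TMM scaling and filterByExpr at a minimum count of 10, which left 14523 genes. Contrasts were ZT16 over ZT4 under each wheel schedule and the difference of these effects, with Benjamini-Hochberg adjustment over all genes tested and a threshold of 0.05. Fold changes are on the log2 scale, with ± giving a standard error. It was computed as the absolute log2 fold change divided by the square root of the quasi-likelihood F statistic. A gene was said not to overlap where every library of a group lay on the same side of every library of the other. No pair of libraries of a group matched within counting noise. With 4 libraries a group, the p-values rest on the spread between libraries, not on depth alone.

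The genes named were picked by size and p: 15 rises and 15 falls, the largest in log2 fold change among called genes with an average log2 CPM of at least 1, without overlap and with a named symbol, the 10 smallest p, the 8 largest differences in mean CPM, up to 5 genes with the smallest p in each list described, all measured clock genes of 4 lists, and the 10 smallest p for the difference. The text describes a part of them, and some are not reported here. The comparison, the 44 gene lists and the rule were chosen with earlier results of these data known. Alternatives were DESeq2 size factors in edgeR, DESeq2 1.42.0, limma-voom (limma 3.58.1), no filter or a minimum count of 50, each lane alone, only the 8 libraries of a comparison, the replicate number as a block, and each library left out.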

Additional observations from a re-analysis of the deposited data

Results flagged for a closer look

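In 8 of 222 groups of 4 libraries tested, 1 library stood apart from the other 3 by Dixon's criterion for the gap to the nearest library over the whole range, and chance alone marks about 1 in 20 groups. DA ZT16 replicate 1 was the far library for Mid1ip1 (84.4 CPM), Hspb1 (100.1 CPM), Hsp90b1 (73.3 CPM) and Fbn1 (16.9 CPM). DA ZT16 replicate 2 was the far library for Dbp at ZT16 (54.1 CPM). DA ZT4 replicate 4 was the far library for Dbp at ZT4 (51.9 CPM), Cry2 (49.4 CPM) and Ciart (5.59 CPM). The calls of Mid1ip1, Hspb1, Hsp90b1, Fbn1 and Cry2 held when any single library was left out, and that of Ciart was lost without DA ZT16 replicate 1.

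The time effect differed between the wheel schedules for 53 of the genes named, at an adjusted p under 0.05 in edgeR's test of day wheel minus night wheel, given here on the log2 scale. Among clock genes the difference was above 0 for Npas2 (1.52) and Bhlhe41 (1.30) and below 0 for Per1 (-1.97), Per2 (-3.23), Per3 (-0.72), Ciart (-1.87), Nr1d2 (-0.57), Tef (-0.23), Hlf (-0.54), Nfil3 (-0.78), Wee1 (-0.66), Usp2 (-0.49) and Coq10b (-1.36). Among contraction and stress responsive genes it was below 0 for Nr4a3 (-6.34), Ppargc1a (-2.79), Atf3 (-3.07), Maff (-1.93), Csrnp1 (-1.39), Klf4 (-1.85) and Xirp1 (-1.30). Among fuel, growth and breakdown genes it was below 0 for Pfkfb2 (-1.08), Sesn1 (-1.004), Fbxo30 (-0.60), Gabarapl1 (-1.22), Klf15 (-1.27) and Glul (-1.22). Chaperone, secreted and signalling genes with a difference below 0 were Serpinh1 (-1.05), Hspb1 (-0.82), Hsp90b1 (-0.39), Ern1 (-0.87), Metrnl (-0.95), Vegfa (-0.74), Nfatc1 (-0.42) and Nfe2l2 (-0.96). Differences above 0 were found for Cirbp (0.38), Orai1 (0.43), Ccdc9b (0.44), Trim7 (0.60), Zfp512b (0.81), Wdr6 (1.63), Afdn (1.05) and Foxo6 (1.5). The other differences were below 0, for Atp6v1a (-1.04), Ell (-0.82), Slc9a3r2 (-1.49), Mcf2l (-1.46), Lrrc8a (-1.04), Fgfr3 (-1.96), Pdxk (-1.14), Gbp10 (-1.85), Tmem140 (-1.21), Otud1 (-3.58) and Avil (-1.86).

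Of these 53, 5 lost the call in at least 1 alternative. Npas2 lost it with each lane alone and without CTRL ZT16 replicate 3 (1.38) or DA ZT16 replicate 1 (1.40). Per1 lost it in 9 leave-outs, without CTRL ZT16 replicate 1, CTRL ZT4 replicate 2, 3 or 4, DA ZT16 replicate 2, 3 or 4, or DA ZT4 replicate 1 or 4. Ciart lost it in limma-voom (-1.72) and without CTRL ZT4 replicate 2 (-1.70), DA ZT16 replicate 2 (-1.88) or DA ZT16 replicate 4 (-1.84). Tef lost it without CTRL ZT16 replicate 1, 3 or 4, CTRL ZT4 replicate 2 or 3, DA ZT16 replicate 3 or 4, or DA ZT4 replicate 1, 3 or 4 (-0.24 to -0.20). Wee1 lost it with lane 1 alone (-0.59).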

How the results depend on the processing

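The count of genes called under day wheel access, 2159, ranged from 1656 (lane 1 alone) to 2415 (DESeq2) across the 9 other settings and from 1682 to 2369 when each of the 16 libraries was left out. The night wheel count, 2729, was 1969 to 2904 in the leave-outs, and the count of called differences, 1415, was 1021 to 1567. Of 96 called genes followed through every alternative under day wheel access, 88 kept the call in all of them and 8 lost it in at least 1, and 48 of 53 called differences kept it. Of 1840 alternative values for list counts, 127 moved by more than 1.5 times, those of the fatty acid, glycogen, polyamine, hypoxia and cytokine lists among them. The list counts of differences were added to the alternatives after seeing the data.

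Same-numbered libraries deviated from their group means with correlations of -0.188 to 0.065 under day wheel access and 0.006 to 0.091 under night wheel access, so the numbers were not taken to pair libraries. A replicate block gave 2102 calls under day wheel access (1101 higher, 1001 lower), 2576 under night wheel access and 1349 differences. With it 8 genes of glucose entry and glycolysis and 1 myokine rose, and Hlf (0.25) passed.

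Signs turned only for genes that did not pass. Arntl2 was -0.065 with lane 2 alone. Per1 was 0.023 with the block and -0.219 to 0.201 in leave-outs, Rora was -0.002 with DESeq2 size factors and with DESeq2, -0.013 with lane 2 alone and -0.035 to 0.097 in leave-outs, Dbp was -0.074 to 0.163 and Nfil3 -0.120 to 0.014 in leave-outs. The causes were not tested. How far depth limits these calls was not tested.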
